A study of Mus musculus with 4 samples.

Results

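The oligoadenylate synthetase genes Oas1a, Oas1g, Oas2, Oas3, Oasl1 and Oasl2 were examined as a set of 6 genes, taken by symbol from count tables of 23238 gene symbols. All 6 symbols were present and 0 were absent, and 5 of them had enough counts to be tested. The libraries came from mouse CD4+ T cells of the C57BL/6j strain, 2 from wild-type mice (WT) and 2 from mice lacking Pdk4 (labelled PDK4 KO, here knockout). Pdk4 encodes a kinase that inhibits the mitochondrial pyruvate dehydrogenase complex. In both genotypes naive cells from spleen and lymph nodes, sorted with magnetic beads, were stimulated through CD3 and CD28 in the presence of IL-2, for 48 hours. The labels give no age, no sex and no description of the deleted allele, and do not say whether Pdk4 was lost in all cells of the mouse or in T cells only. They also do not say whether replicates came from separate mice, so the p-values below rest on a spread between libraries that may be technical only. Where a pair of values is given for a genotype, replicate 1 comes first.

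Oligoadenylate synthetases are interferon-induced enzymes that bind double-stranded RNA, a sign of viral infection, and then join ATP into short oligoadenylates with 2'-5' bonds. These oligoadenylates serve as a messenger of the antiviral response. Interferon acts on the genes through ISGF3, a complex that includes STAT2 and IRF9 and binds the interferon-stimulated response element (ISRE) in their promoters. Mice carry several Oas1 genes beside single Oas2 and Oas3 genes, and Oasl1 and Oasl2 encode related proteins with ubiquitin-like domains at the carboxyl end.

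The promoters are shown first because members differed in whether they hold the ISRE letters. RefSeq windows on GRCm38.p6, 250 bases before to 50 bases after each start, were found for 5 of the 6 members, with Oas2 unmatched. They were searched on both strands for the ISRE core, TTTC followed by any 2 bases and TTTC again, which on the other strand is GAAA, any 2 bases and GAAA. Matches may overlap each other. Capitals mark the matches below, and each sequence runs 5′ to 3′ on the gene's strand.
Oas3: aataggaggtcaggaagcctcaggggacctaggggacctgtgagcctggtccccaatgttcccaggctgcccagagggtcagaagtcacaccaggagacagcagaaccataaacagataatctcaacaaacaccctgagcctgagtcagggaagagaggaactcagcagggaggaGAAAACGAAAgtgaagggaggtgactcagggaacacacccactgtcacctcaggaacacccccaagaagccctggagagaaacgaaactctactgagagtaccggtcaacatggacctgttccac
Oas1a: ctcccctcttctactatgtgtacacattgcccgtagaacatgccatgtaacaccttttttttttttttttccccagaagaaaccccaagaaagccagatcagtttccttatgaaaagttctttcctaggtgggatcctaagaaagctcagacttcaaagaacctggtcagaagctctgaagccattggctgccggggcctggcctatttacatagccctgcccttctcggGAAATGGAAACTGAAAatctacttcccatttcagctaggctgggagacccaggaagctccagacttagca
Oas1g: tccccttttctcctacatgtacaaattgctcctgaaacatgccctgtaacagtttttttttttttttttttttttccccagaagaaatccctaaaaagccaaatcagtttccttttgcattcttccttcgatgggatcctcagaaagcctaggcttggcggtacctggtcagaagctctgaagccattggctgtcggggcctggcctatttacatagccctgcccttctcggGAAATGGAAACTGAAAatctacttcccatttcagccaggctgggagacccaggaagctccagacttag
Oasl1: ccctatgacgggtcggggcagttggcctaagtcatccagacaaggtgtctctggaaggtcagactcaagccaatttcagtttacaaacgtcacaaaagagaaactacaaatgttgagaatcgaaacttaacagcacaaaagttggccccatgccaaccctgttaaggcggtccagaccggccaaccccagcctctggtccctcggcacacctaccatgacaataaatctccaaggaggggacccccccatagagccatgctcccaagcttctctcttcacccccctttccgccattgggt
Oas1c: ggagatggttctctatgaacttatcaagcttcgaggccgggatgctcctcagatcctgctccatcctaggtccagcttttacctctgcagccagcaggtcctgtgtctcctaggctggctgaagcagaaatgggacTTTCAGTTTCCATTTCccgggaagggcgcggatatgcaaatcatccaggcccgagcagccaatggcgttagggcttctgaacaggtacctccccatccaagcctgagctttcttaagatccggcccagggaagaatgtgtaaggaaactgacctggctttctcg

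The windows are chr5:120777610-120777909 for Oas3, chr5:120907476-120907775 for Oas1a, chr5:120887564-120887863 for Oas1g and chr5:120812465-120812764 for Oas1c, all on the minus strand, and chr5:114922990-114923289 on the plus strand for Oasl1. Oas3 had 1 match, GAAAACGAAA, from 75 to 66 bases before the start. Oas1a and Oas1g each had 2 overlapping matches, GAAATGGAAA and GAAACTGAAA, which together spanned 20 to 5 bases before the start in Oas1a and 18 to 3 bases before it in Oas1g. These promoters were identical in 85.3% of the columns of their alignment. The windows of Oasl1 and Oasl2 held 0 matches, which says only that these letters are not in this stretch. Oas1c, a family gene outside the set, held 2 overlapping matches, TTTCAGTTTC and TTTCCATTTC, from 114 to 99 bases before its start. Oas1b starts close by on the plus strand (base 120812635), and the same stretch lies nearer to it, 22 to 7 bases before its start. Read on the strand of Oas1b it is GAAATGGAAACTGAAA, the same 16 bases as the marked stretch of Oas1a. Of all 32851 windows in the table, 1131 (3.44%) held the core at least once, and 74 (0.225%) held it several times. Among 34 windows of other interferon-stimulated genes, 14 (41.2%) held it. The letters of the interferon-gamma activated site, TTC, any 3 bases and GAA, which read the same on both strands, were found in Oas1a (TTCAAAGAA, 98 to 90 bases before the start) and in 0 of the other 4 member windows, against 8.30% of all windows.

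The members lie at 2 places on chromosome 5 (GENCODE vM21 on GRCm38). Oasl2 (114896936 to 114912234) and Oasl1 (114923240 to 114937915) stand side by side on the plus strand. Oas2 (120730333 to 120749853), Oas3 (120753098 to 120777661), Oas1g (120876142 to 120887613) and Oas1a (120896256 to 120907521) lie on the minus strand in a cluster of 10 Oas genes that spans 191320 bases. All 6 are annotated as protein-coding. On the opposite strand, the antisense gene Gm13822 overlaps the start of Oasl1 and the unclassified gene Gm43068 lies within Oas2. Without knowledge of the use of strand, reads there cannot be told apart.

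Total counts lay between 8837810 and 9739624 per library. Pdk4 itself had 1 and 0 counts in the wild-type libraries, against 0 and 2 in the knockout libraries, all under a floor of 3 counts, so the targeted gene does not check the labels. Among CD4 T cell markers, 11 of 12 were in the tables and had counts, with Cd3e at 67.2 ± 0.694 CPM (SD, n = 2) in wild type and 69.8 ± 7.83 in knockout. Of the 11 markers tested, Cd5 rose (log2 fold change 0.29, adjusted p = 0.0341) and Cd2 fell (-0.41, adjusted p = 0.000107), and the call of Cd5 was lost when wild-type replicate 2 (adjusted p = 0.267) or either knockout library (0.0768 and 0.332) was left out. At an unadjusted p under 0.05 in edgeR, 2 of these markers were higher and 5 lower in knockout, and Cd3e was not among them. The summed level of the list was 4256 and 4405 CPM in wild type and 3962 and 3920 CPM in knockout. CPM here and below are counts relative to the library total after TMM scaling.

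Oas3 mRNA was higher in knockout cells, and the other tested members had higher means in knockout without passing the test. By the quasi-likelihood F test of edgeR, with p-values adjusted by Benjamini-Hochberg over 11464 genes, 1 of the 5 tested members rose, 0 fell and 4 did not pass. At an unadjusted p under 0.05, 4 members were higher and 0 lower, against 6.8% and 6.68% of all tested genes, and DESeq2 and limma-voom also called 0 lower. Of all tested genes, 1.45% were called higher and 1.21% lower in knockout. The median log2 fold change of the tested members was 1.51, against 0.0004 over all tested genes. Summed over the 6 members, the level was 14.5 and 16.5 CPM in wild-type replicates 1 and 2, and 48.5 and 48.4 CPM in knockout replicates 1 and 2. Oas3 made up most of each sum, and without it the sums were 5.5 and 6.3 CPM against 16.9 and 13.7. Both knockout libraries lay above both wild-type libraries in 5 of the 6 members, an order that 21.5% of all tested genes showed, and Oas2 overlapped. One of these 5, Oasl1, entered the test through its knockout libraries alone, as only those reached the minimum level. It thus had to lie higher in knockout. It is also counted among the 4 members with an unadjusted p under 0.05 and in the median.

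**Figure D1:**
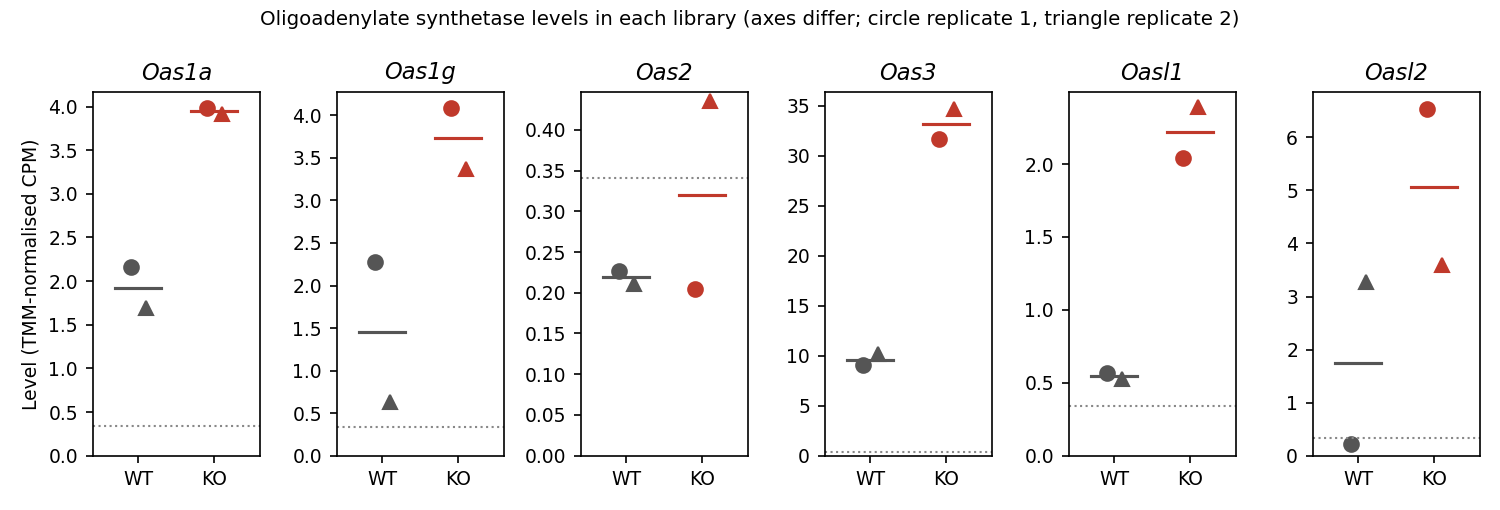
Level of each member in TMM-normalised CPM (vertical axes start at 0 and differ between genes) in WT and KO libraries, with circles for replicate 1, triangles for replicate 2, a bar at the mean and a dotted line at the highest floor of 3 counts. Oas3 lies at 9.09 and 10.1 CPM in wild type and 31.7 and 34.7 in knockout, while Oasl2 has its wild-type libraries at 0.227 and 3.27 CPM.

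Oas3 encodes the longest synthetase, with 3 synthetase units in tandem. It had 80 and 96 counts in the wild-type libraries, against 310 and 319 in the knockout libraries. Levels were 9.61 ± 0.740 CPM in wild type and 33.2 ± 2.13 CPM in knockout (SD, n = 2 each). The gap between genotypes was larger than the spread within either, and the log2 fold change was 1.78 (SE 0.218, adjusted p = 1.30e-06), a 3.44-fold difference. By p-value Oas3 ranked 22 of 11464 genes. It was the member with the most counts in every library, which bears on how precisely its difference could be measured.

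Oas1a and Oas1g encode small synthetases of a single unit and lie next to each other in the cluster. Oas1a had 19 and 16 counts in the wild-type libraries, against 39 and 36 in the knockout libraries. Its level was 1.92 ± 0.332 CPM in wild type and 3.95 ± 0.0501 in knockout (log2 fold change 1.03, SE 0.595, adjusted p = 0.471). Oas1g had 20 and 6 counts in wild type, and 40 and 31 in knockout. Its level was 1.45 ± 1.16 and 3.73 ± 0.507 CPM (1.36, SE 0.668, adjusted p = 0.37). For both genes the knockout libraries lay above the wild-type libraries, and for Oas1g the wild-type libraries differed from each other by more than wild-type replicate 1 did from knockout replicate 2. Leaving out wild-type replicate 1 gave Oas1g a log2 fold change of 2.53 (adjusted p = 0.205), and leaving out the other wild-type library gave 0.71 (adjusted p = 0.833).

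These copies cannot be fully separated by sequence. Of all 50-base windows in the longest coding transcript of Oas1a, 57.6% occur exactly in a transcript of another gene, and for Oas1g the share was 54.7%, with each sharing most with the other and some with Oas1b. In the last 500 bases of the transcript, where reads of a 3' kit would fall, the shares were 56.1% and 30.2%. How the authors assigned reads with several matches is not given in the sources used here, so the split between Oas1a and Oas1g is uncertain. With their counts summed into 1 feature, a choice made after seeing the data, there were 39 and 22 counts in wild type and 79 and 67 in knockout. The summed level was 3.38 ± 1.49 and 7.68 ± 0.557 CPM (SD, n = 2 each), and the log2 fold change of 1.19 (SE 0.434) did not pass (adjusted p = 0.17). For Oas2, Oasl1 and Oasl2 the share of windows held by another gene was 0%, and for Oas3 it was 0.792% (8.20% in its last 500 bases).

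Oas2 encodes a synthetase with 2 units. It had 2 and 2 counts in the wild-type libraries, against 2 and 4 in the knockout libraries. All but knockout replicate 2 were under the floor of 3 counts, which corresponds to 0.307 to 0.341 CPM, and the gene was not tested. Over both libraries of each genotype the ratio of knockout to wild type was 1.44, with an exact 95% interval of 0.342 to 6.96 that covers counting error only. These counts do not exclude any ratio within that interval. Oas2 lies next to Oas3, in which the counts were at least 80 per library.

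Oasl1 encodes a synthetase-like protein without synthetase activity that is known to limit translation of Irf7 mRNA. It had 5 and 5 counts in the wild-type libraries, against 20 and 22 in the knockout libraries. Levels were 0.548 ± 0.0284 CPM in wild type and 2.22 ± 0.246 in knockout. As only its knockout libraries reached the minimum level for testing, the groups could not overlap. The log2 fold change of 1.99 was the largest of the tested members, but with an SE of 0.864 it did not pass (adjusted p = 0.285). With each library left out in turn it lay between 1.87 and 2.10.

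Oasl2 encodes a synthetase-like protein that keeps synthetase activity in mice. It had 2 and 31 counts in the wild-type libraries, against 64 and 33 in the knockout libraries. The level was 0.227 and 3.27 CPM in the wild-type libraries, and 6.54 and 3.59 CPM in the knockout libraries. Wild-type replicate 2 was thus close to knockout replicate 2, and wild-type replicate 1 was under the floor. The log2 fold change was 1.51 (SE 0.67) and did not pass (adjusted p = 0.299). Gaps between the wild-type libraries were taken on the log2 scale, with 0.5 CPM added. Among 10747 tested genes with at least 20 counts in a wild-type library, 10, Oasl2 itself included, had a gap at least as large as that of Oasl2.

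The value of Oasl2 rested on which wild-type library was used. Without wild-type replicate 2 its fitted log2 fold change was 4.40 and passed (adjusted p = 0.0151), so that 2 members were called. The 97 knockout counts against the 2 counts of wild-type replicate 1 give a ratio of 22.5, with an exact 95% interval of 6.06 to 188 for counting error. Without wild-type replicate 1 the log2 fold change was 0.63 (adjusted p = 0.785), and the ratio to the 31 counts of wild-type replicate 2 was 1.56, with an interval of 1.03 to 2.42. The interferon-induced GTPase Mx1, chosen after its values were seen, also differed between the wild-type libraries, with 0 and 10 counts, and had 69 and 40 in knockout. Cmpk2, another interferon-stimulated gene, lay as Mx1 did in wild type (1 and 20 counts). Ddx60, from the same list, lay the other way (30 and 5 counts), as did the member Oas1g (20 and 6).

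**Figure D2:**
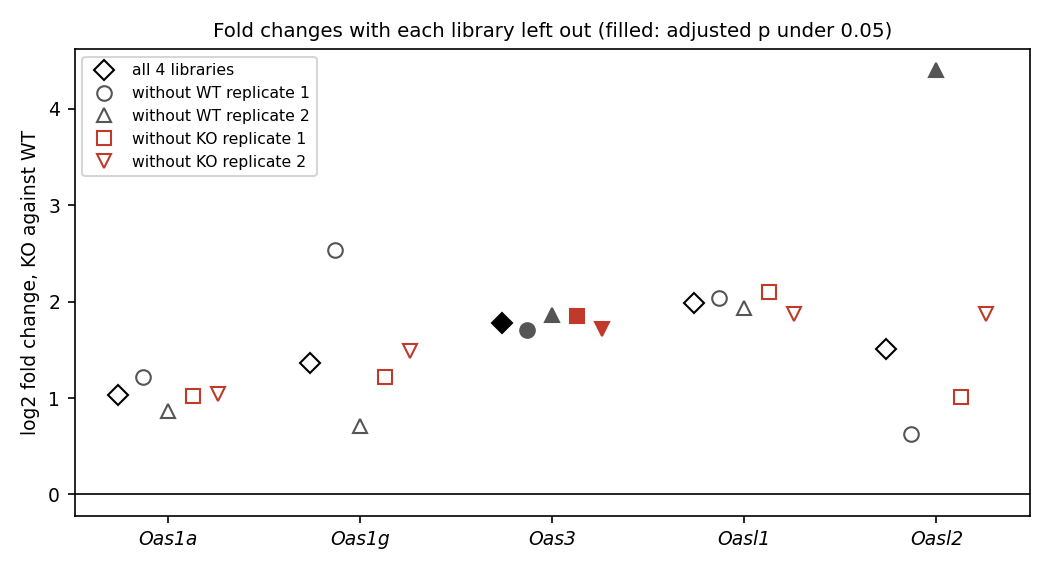
Log2 fold change of knockout against wild type (vertical axis) for the 5 tested members with all 4 libraries and with each library left out, filled where the adjusted p over all genes was under 0.05. Oas3 stays between 1.71 and 1.86 and filled throughout, while Oasl2 runs from 0.63 to 4.40 and is filled only without WT replicate 2.

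The other genes of the Oas cluster were compared next. Oas1b, annotated as a polymorphic pseudogene, carries a premature stop in common laboratory strains. It had 91 and 75 counts in the wild-type libraries, against 112 and 92 in the knockout libraries, and did not pass (log2 fold change 0.23, SE 0.302, adjusted p = 0.819). Oas1c had 23 and 45 counts in wild type, and 40 and 41 in knockout (0.21, SE 0.509, adjusted p = 0.92). The genotypes overlapped in both genes. The ISRE letters between their starts are those described above, nearer to Oas1b and on its strand as in Oas1a. Without wild-type replicate 1 the log2 fold change of Oas1c was -0.15. Oas1d, Oas1e, Oas1f and Oas1h had 0 counts in every library. Whether the differences of Oas3 and of Oas1b or Oas1c themselves differ was not tested.

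**Figure D3:**
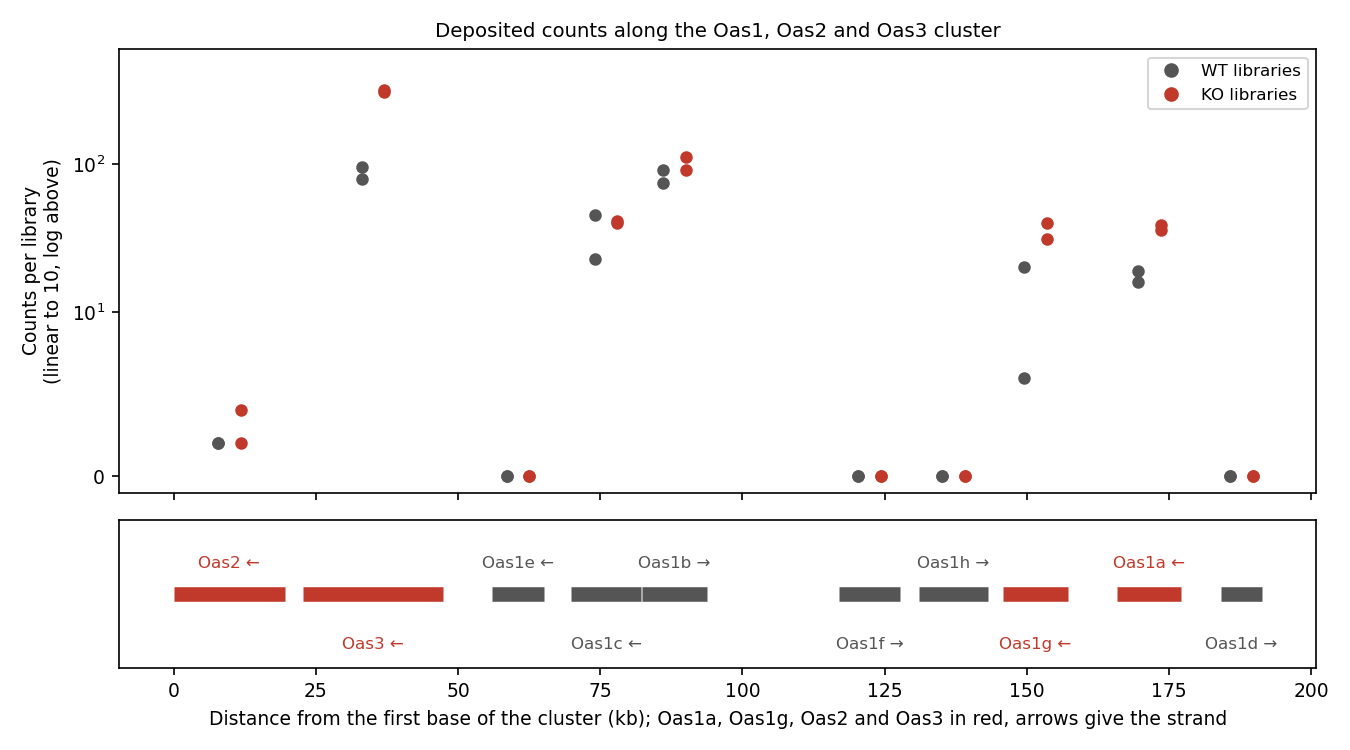
Deposited counts per library (vertical axis, linear to 10 and logarithmic above) of the 10 genes of the Oas1, Oas2 and Oas3 cluster, placed by distance in kb from the first base of the cluster, with WT libraries in grey and KO libraries in red. Oas3 reaches 310 and 319 counts in knockout, its neighbour Oas2 has at most 4, and Oas1d, Oas1e, Oas1f and Oas1h are at 0.

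Genes bordering these loci did not pass the test. Of the 3 protein-coding genes on each side of the Oas cluster, Rasal1 (log2 fold change 0.35, adjusted p = 0.804), Dtx1 (-0.26, 0.923), Ptpn11 (0.04, 0.954) and Rpl6 (-0.06, 0.697) were tested, Rph3a had 0 counts and Cfap73 was not analysed here. Beside Oasl2 and Oasl1, 1500011B03Rik (-0.17, adjusted p = 0.833), 2210016L21Rik (0.21, 0.564) and Sppl3 (0.08, 0.868) were tested and not called, 4930519G04Rik had at most 5 counts in a library, and Gm9936 was not analysed here.

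The 5 tested genes of the oligoadenylate turnover list, some of whose proteins act on other nucleotides or on ribosomes, showed no difference past the test. Abce1, a ribosome recycling factor, was at 50.9 ± 1.48 and 67.1 ± 1.00 CPM, without overlap but not past the test (0.40, SE 0.131, adjusted p = 0.109). The 2'-phosphodiesterase Pde12, which degrades oligoadenylates, was at 23.9 ± 2.17 and 22.9 ± 0.930 CPM (adjusted p = 0.948). Akap7, a protein with a phosphodiesterase-like domain, was at 12.8 ± 1.51 and 9.48 ± 4.74 CPM (adjusted p = 0.604). The nucleotide-degrading enzymes Enpp1 (34.2 ± 2.41 and 26.7 ± 2.85 CPM, adjusted p = 0.377) and Samhd1 (450.1 ± 18.9 and 407 ± 7.81 CPM, adjusted p = 0.383) had no overlap between genotypes and lay lower in knockout. Of all 11464 tested genes, 2510 lay lower without overlap, and 2466 lay higher without overlap, as Abce1 did. Of this list of 6 genes, 5 were tested, 0 rose and 0 fell, with a median log2 fold change of -0.14, and 1 gene, Abce1, had an unadjusted p under 0.05 in edgeR. DESeq2 and limma-voom also called 0 of them. The other, Enpp3, had 0 counts.

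**Figure D4:**
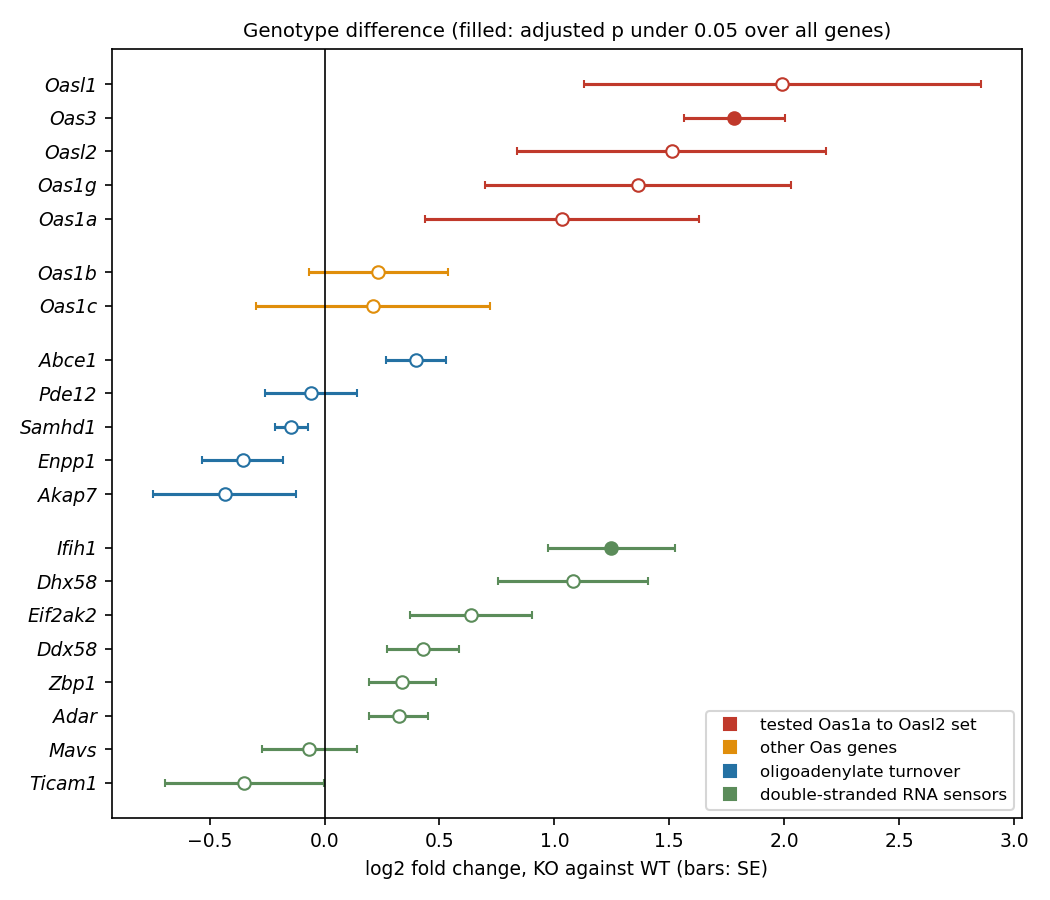
Log2 fold change of knockout against wild type (horizontal axis, bars give the SE) for the tested members, the other Oas genes, the genes of the oligoadenylate turnover list, and sensors of double-stranded RNA, filled where the adjusted p over all genes was under 0.05. Oas3 and Ifih1 are the filled points, and Abce1 lies at 0.40.

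Sensors that, like the synthetases, bind viral or other double-stranded RNA included 1 gene that rose. Of 8 tested sensors and adaptors, Ifih1 (MDA5) went from 7.58 ± 1.17 to 18.0 ± 3.46 CPM (SD, n = 2 each; log2 fold change 1.25, adjusted p = 0.00615), 0 fell and 7 did not pass, with a median of 0.38. At an unadjusted p under 0.05 in edgeR, 6 of the 8 were higher in knockout and 0 lower, against 6.8% and 6.68% of all tested genes. The kinase Eif2ak2 (PKR), which also responds to double-stranded RNA, was at 11.3 ± 1.66 and 17.6 ± 5.54 CPM (0.64, adjusted p = 0.257). The call of Ifih1 was lost without wild-type replicate 2 (adjusted p = 0.0843) or without knockout replicate 1 (0.163), when 0 sensors rose.

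Among 16 genes of interferon receptors, their kinases and inhibitors (Usp18 and Socs1), ISGF3 and the IRF family, 3 rose, 0 fell and 13 did not pass, with a median log2 fold change of 0.06. Irf7, the factor that amplifies type I interferon production, went from 9.89 ± 1.44 to 26.5 ± 0.700 CPM (SD, n = 2 each; 1.42, adjusted p = 0.000143). The ISGF3 subunits Stat2 (0.62, adjusted p = 0.0241) and Irf9 (0.36, adjusted p = 0.0434) were the others. Stat2 lost its call when wild-type replicate 1 (adjusted p = 0.402, log2 fold change 0.36) or either knockout library (adjusted p = 0.122 without replicate 1, 0.0964 without replicate 2) was left out. Irf9 lost its call when wild-type replicate 2 (adjusted p = 0.329) or either knockout library (0.439 and 0.0577) was left out. Upper quartile scaling and DESeq2 left Irf7 as the only call of this list.

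Of 36 other interferon-stimulated genes, 34 were tested, of which 14 rose, 1 fell and 19 did not pass, with a median log2 fold change of 0.72. Of the 15 called, Mx1 had reached the minimum level in knockout alone, so it had to lie higher there. The call of Mx1 was lost in 3 of 13 alternative settings, DESeq2 among them (adjusted p = 0.635). The smallest p-values were those of Ifi44 (2.45, adjusted p = 1.54e-08), Isg15, a ubiquitin-like modifier (1.55, 2.81e-08), and Trim30a (0.63, 3.29e-06). The gene that fell, Ifitm1 (-1.27, adjusted p = 0.0441), was chosen after its values were seen and was not called in 8 of 13 alternative settings, 3 of which left out a library (adjusted p = 0.141 without wild-type replicate 1, 0.133 without the other, 0.42 without knockout replicate 1). Among 12 interferon genes, 10 had 0 counts in every library, Ifnk had 1 count in wild-type replicate 2, and Ifng was at 13.6 ± 2.63 CPM in wild type and 7.63 ± 0.485 in knockout (adjusted p = 0.155). With 0 counts, up to 3 counts in a library are possible, or 0.307 to 0.341 CPM.

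The 5 genes whose levels followed the tested members most closely over the 4 libraries were Amica1, Axl, Tbc1d4, Ccl5 and Ide. Likeness was the Euclidean distance between log2 levels, taken with 0.5 CPM added and centred on each gene's mean. Over 8074 genes that averaged 10 CPM or more, the named distances ranged from 0.106 for Amica1 to 0.313 for Ide. Of the members themselves, Oasl1 lay nearest to their mean profile (0.289) and Oasl2 farthest (1.65). The added 0.5 CPM is close to the wild-type level of Oasl1 (0.548 CPM) and narrows its difference between genotypes. Oasl1 is part of the mean profile although it entered the test through its knockout libraries alone. Axl, a receptor tyrosine kinase, had 166 and 202 counts in wild type and 529 and 412 in knockout. These distances over 4 libraries are a description and carry no test.

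Some markers of other cells, mostly those of B cells, moved with genotype in the same libraries as the members. Of 9 tested B cell markers 6 fell and 0 rose, among them Fcer2a (-4.96, adjusted p = 6.76e-06), Cd79b (-2.97, 1.76e-05) and Cd22, which had 36 and 55 counts in wild type and 0 in both knockout libraries (adjusted p = 6.19e-05). Of these 6, 5 had reached the minimum level for testing in wild type alone, so they had to lie lower in knockout, and Pax5 had 0 counts in every library. The summed level of that list was 134 and 172 CPM in wild type and 93.7 and 108 CPM in knockout. Cd74, which was not called, made up most of it, and without Cd74 the sums were 47.8 and 53.0 CPM against 6.74 and 6.96. The 12 tested markers of CD8 T cells and NK cells included 2 that fell, Gzma (-1.78, adjusted p = 7.54e-12) and Klrc1 (-0.89, 0.0152), with sums of 615 and 626 CPM against 435 and 393. Gzma alone went from 219 CPM in both wild-type libraries to 76.1 and 51.2, and without it the sums were 396 and 407 CPM against 359 and 341. The call of Klrc1 was lost without wild-type replicate 2 (adjusted p = 0.227) or knockout replicate 1 (0.254). Of 6 tested myeloid markers 0 were called in edgeR (1 had an unadjusted p under 0.05), DESeq2 or limma-voom (with sums of 16.4 and 12.4 CPM against 6.13 and 18.9, and 8 of the list of 14 too low to be tested). Among plasmacytoid dendritic cell markers, Spib (-2.95, adjusted p = 0.0257) and Ly6d (-1.82, 0.0294) fell of 9 tested, which B cells express too, and Spib had reached the minimum level in wild type alone. Siglech and Klk1 had 0 counts. At an unadjusted p under 0.05 in edgeR, 1 of the 9 was higher in knockout and 3 lower. The higher one, Bst2 (log2 fold change 0.59), is also on the list of other interferon-stimulated genes. Both knockout libraries lay above both wild-type libraries in 2 of the 9 and below them in 4. Of all 11464 tested genes, 2466 lay above and 2510 below in this way. The sums of 482 and 513 CPM against 520 and 486 were mostly Irf8, a gene also counted in the IRF family above, and without it they were 169 and 169 CPM against 153 and 153. Spib kept its call only without knockout replicate 1 (adjusted p = 0.0111) among the 4 fits that left out a library, and Ly6d in 0 of them. In such bulk samples fewer cells of a type and less RNA per cell cannot be told apart, and the part of these cells in the result for Oas3 was not tested.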

How the data were processed

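Raw counts per gene symbol were deposited by the authors, 1 table per library, from Lexogen Quant-Seq libraries (per the labels' protocols), a kit that by its name reads 3' ends of transcripts. The labels' catalogue number may belong to another Lexogen kit, so that reads lie at 3' ends rests on the name alone. The submitters' processing notes name Bowtie2, edgeR and mm10, with no version or role. Not given in the sources used here are the counter, annotation, use of strand and treatment of multiple matches. For 35 symbols on several rows the counts were added up. Genotypes were compared over all 4 libraries with edgeR 4.0.16 (R 4.3.3): filterByExpr, TMM, a two-sided quasi-likelihood F test with genotype as the only term, and Benjamini-Hochberg adjustment over 11464 genes, calls being made at 0.05. SE is the log2 fold change divided by the square root of F. "Rose" and "fell" mean called. The test was tested on simulated data. The members and gene lists were chosen with earlier results of these data known. Named were all members, the Oas and oligoadenylate turnover lists, up to 3 called genes by smallest p of the other lists, and the 5 nearest profiles. Cd3e, Eif2ak2, Ifng, Ifnk, Pax5, Siglech, Klk1, Bst2, Cd74, Irf8, Usp18, Socs1, Mx1, Cmpk2, Ddx60 and Ifitm1 lie outside this rule and were picked with their values in view. Positions are from GENCODE vM21, promoters from RefSeq (GRCm38.p6). Alternatives covered scaling, filters, DESeq2 1.42.0, limma-voom (limma 3.58.1), Rn45s (11.6 to 12.3% of counts), a replicate block and leaving out each library. Some listed and neighbouring genes are not reported here, and list counts leave them out. Floors and intervals cover counting error only.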

Additional observations from a re-analysis of the deposited data

How the results depend on the processing

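Oas3 was called higher under all 13 alternatives, with log2 fold changes of 1.71 to 1.86 and adjusted p of 3.71e-12 to 5.26e-05. With a library left out, 1 to 2 members were called higher and 0 lower, and 170 to 293 genes were called in all, against 305. The second member was Oasl2 without wild-type replicate 2, and the totals under 200 were those without knockout replicate 1 (170) and wild-type replicate 2 (184). Oas1a, Oas1g and Oasl1 were called under 0 alternatives, and all 5 tested members kept a positive log2 fold change. With a library left out, the log2 fold change of Oas1c ran from -0.154 (without wild-type replicate 1) to 0.704, and it was not called. With the replicate number as a block, 1 member and 260 genes were called, and of the other genes named Irf9 (adjusted p = 0.0532) and Ifitm1 (0.0652) were not called. The labels do not say that a number marks a shared mouse or day. Same-numbered libraries did not deviate together (correlation 0.007 over 11464 genes). With 2 libraries per genotype, this value cannot decide whether they shared a mouse or day. A genotype left with 1 library is assumed to vary like the other. The cause of these changes was not tested. Oas2 had 2 to 4 counts and was not tested, and Oas1a, Oas1g, Oasl1 and Oasl2 had at most 64 counts in a library.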
